A study of Mus musculus with 12 samples.

Results

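Nuclei of the kidney proximal tubule were found in libraries of medial perirenal adipose tissue (mPRAT) from young mice. A nucleus was counted as a member when the summed unique molecular identifiers (UMIs) of Slc34a1, Lrp2, Cubn, Slc5a12, Acsm2 and Kap came to at least 3, with at least 2 of these genes seen. That sum also had to exceed both the sum of the distal nephron genes Slc12a3, Slc14a2, Slc12a1 and Umod and the sum of the adipose genes Adipoq, Plin1, Acsl1, Flt1 and Lama2. The measured levels of these 15 genes therefore chose the nuclei, and their values below are a description. At 1 month, 469 of 5391 kept nuclei were members (8.70%, 95% Clopper-Pearson interval 7.96% to 9.48%). At 2 months the count was 418 of 6156 (6.79%, 6.17% to 7.45%). Together they were 887 of the 106898 kept nuclei of the series.

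The series profiled single nuclei from mouse adipose depots in 12 libraries, 1 library per group. The libraries described here came from C57BL/6J males fed normal chow at 22 °C. Their titles give 1 and 2 months of age, and the sample records give 4 and 8 weeks. The labels name no transgene, deletion or agent for either group. The number of mice behind a library is not given in the sources used here, so differences between the ages carry counting error only and no replicate error. Nuclei were stained with 7-AAD and sorted before loading, and the labelled tissue was adipose at both ages. The labels do not name kidney as a tissue.

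The proximal tubule is the first stretch of the nephron after the glomerulus. Its cells take back most of the filtered glucose, amino acids, phosphate, bicarbonate and protein through carriers and endocytic receptors on an apical brush border, and they secrete organic anions and cations. It runs from an early segment, S1, which carries high-capacity carriers such as the glucose carrier SGLT2 (Slc5a2), to a late straight segment, S3, which carries high-affinity carriers and many genes that differ between male and female mice. Perirenal fat lies against the kidney. Shares below count nuclei, and levels are relative to the RNA of the nuclei summed.

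The start regions of 3 of the 6 genes that chose the nuclei are shown because these genes carry the identity of the population. Slc34a1 encodes the apical sodium-phosphate carrier NaPi-IIa, Acsm2 a mitochondrial medium-chain acyl-CoA synthetase and Cubn the endocytic receptor cubilin. Each line gives the 250 bases before the RefSeq start, 5′ to 3′ on the gene's strand, in GRCm38.p6. Capitals mark TATAAA on either strand, the letters of a TATA box, a general core promoter element that was chosen after the data were seen.
Slc34a1: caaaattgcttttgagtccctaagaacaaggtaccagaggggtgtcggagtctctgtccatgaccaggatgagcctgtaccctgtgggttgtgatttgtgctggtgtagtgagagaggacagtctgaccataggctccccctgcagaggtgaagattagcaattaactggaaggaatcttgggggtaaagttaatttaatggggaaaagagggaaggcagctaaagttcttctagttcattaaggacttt
Acsm2: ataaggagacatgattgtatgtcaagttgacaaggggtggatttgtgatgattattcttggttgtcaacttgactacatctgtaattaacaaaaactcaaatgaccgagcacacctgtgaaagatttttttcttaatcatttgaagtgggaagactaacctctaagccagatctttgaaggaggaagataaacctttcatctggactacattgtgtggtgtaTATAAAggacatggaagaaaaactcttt
Cubn: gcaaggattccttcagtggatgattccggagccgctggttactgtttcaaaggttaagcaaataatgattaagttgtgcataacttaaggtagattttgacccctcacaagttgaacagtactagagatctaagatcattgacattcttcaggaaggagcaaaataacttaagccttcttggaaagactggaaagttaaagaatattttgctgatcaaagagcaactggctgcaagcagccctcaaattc
The Slc34a1 window lies at chr13:55399398-55399647 on the plus strand, with 0 matches. The Acsm2 window lies at chr7:119554090-119554339 on the plus strand, with 1 match, on the gene's strand, that begins 28 bases before the start. Acsm2 had 2 RefSeq entries, and an entry with a match was taken first for printing. The match shown therefore does not speak for both entries. The Cubn window lies at chr2:13491877-13492126 on the minus strand, with 0 matches. None of the 3 windows overlaps an exon of the GENCODE M21 annotation. The Slc34a1 window nevertheless lies inside the span of that gene in GENCODE (chr13:55398187-55415592), which begins upstream of the RefSeq start used. TATAAA stood in the window of 15 of 113 genes of the proximal tubule role and gate lists that had a RefSeq entry (13.3%), and in 3872 of all 27025 symbols (14.3%), so the share among the listed genes was near that of all genes. The 15 included Acsm2, Kap, G6pc, Miox, Ggt1 and Slc3a1. A match is only a run of letters and says nothing of binding.

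The same rule found almost no such nuclei elsewhere in the series. Ages of 6 months are those of the titles, while the records of the same libraries give 16 weeks. It found 12 of 11412 nuclei in mPRAT at 6 months (0.105%, 0.0543% to 0.184%), 7 of 5966 in lateral perirenal fat (lPRAT) at 6 months (0.117%), 1 each in 1-month interscapular brown fat (iBAT) and cold-exposed inguinal white fat (iWAT), and 0 in the other 6 libraries. In cold-exposed mPRAT, 0 of 3781 kept nuclei met it, which allows a share of up to 0.0793% (3 counts), or 0.0975% by the exact interval used for the other shares. The mitochondrial limit had removed 7353 of the 11157 barcodes of that library, so the 0 covers the kept nuclei only. Distal nephron nuclei, chosen by at least 3 UMIs of the 4 distal genes above the other sums, were 403 (7.48%) at 1 month and 120 (1.95%) at 2 months. There were thus 1.16 proximal nuclei per distal nucleus at 1 month and 3.48 at 2 months. The distal rule asked for no second gene, unlike the proximal rule. The distal nuclei also differed in makeup, with Slc14a2 at 6478 CPM at 1 month and 172 CPM at 2 months, so these ratios compare unlike sets.

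**Figure D1:**
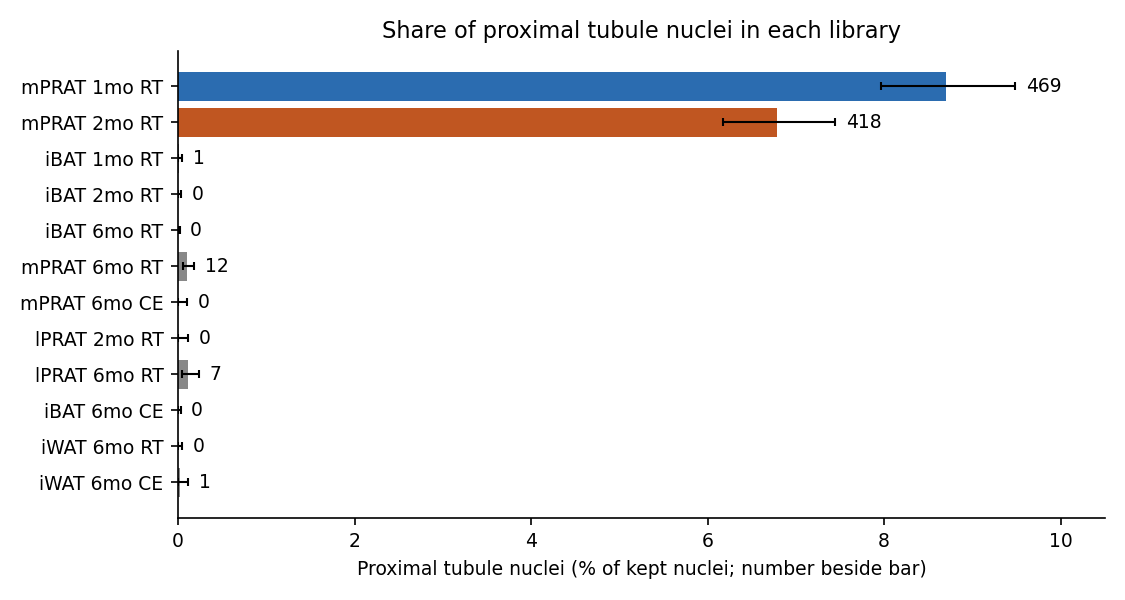
Share of kept nuclei that met the proximal tubule rule in each of the 12 libraries, with the number of nuclei beside each bar. Bars are the share in percent and lines the 95% Clopper-Pearson interval, which covers counting error only. The mPRAT libraries at 1 and 2 months stood at 8.70% and 6.79%, and no other library passed 0.117%.

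Depth differed between the ages and runs beside every comparison below. The libraries held 11565118 and 26047446 UMIs, of which the members held 536420 and 1580780. Members had a median of 912 UMIs (500 to 7356) and 604 genes at 1 month, and 2724 UMIs (522 to 22619) and 1503 genes at 2 months. Adipocyte nuclei of the same libraries had medians of 1889 and 1878 UMIs. In them the summed UMIs of Adipoq, Plin1 and Acsl1 came to at least 3 and exceeded both the proximal and the distal sum. Gm42418, a transcript that overlaps ribosomal RNA, took 7.65% of member UMIs at 1 month and 2.10% at 2 months, against 3.70% and 2.73% in adipocyte nuclei. Mitochondrial UMIs had medians of 0.419% and 0.294% in members. Kept nuclei of the 2 libraries shared 9 barcodes, and no barcode was a member in both. The part of depth and RNA makeup in the age differences was not tested.

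Members lay well inside the rule at 2 months and nearer its edge at 1 month. The summed UMIs of the 6 genes had a median of 9 (at most 51) at 1 month and 33 (at most 233) at 2 months. Just inside, 24 and 4 members had exactly 3 UMIs. Just outside, 41 and 33 nuclei had 2 UMIs, and 19 and 10 nuclei were held out by the adipose genes.

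The 14 proximal tubule markers that the rule did not use were present at both ages. All 14 had at least 20 UMIs over both libraries. All 14 were more than 2-fold higher than in distal nephron nuclei at both ages, where 13.5% of the 8858 genes measured were at least 2-fold higher. Of the 14, 12 were more than 2-fold higher than in adipocyte nuclei at both ages, against 17.4% of all genes. The exceptions were Slc4a4, the basolateral bicarbonate carrier, and Pck1, the gluconeogenic enzyme. Slc4a4 stood at 1217 and 2120 CPM (the UMIs of a gene summed over the nuclei of a kind, per 1e+06 UMIs) in members and at 1141 and 2376 CPM in adipocyte nuclei. The label therefore held against its own markers. Genes of other nephron cells and dividing cells were mostly low or at 0. Six2, Cited1, Kcnj1 and Cldn16 had 0 UMIs at both ages, podocyte genes had at most 6 each, and 4 of 9 collecting duct genes were at 0 in both libraries. Cldn10, a claudin of the thick limb list that the proximal tubule also uses, stood at 457 and 855 CPM. Of 13 injury genes, Lcn2 had 0 UMIs at both ages and Havcr1 (the tubule injury marker KIM-1) had 2 and 0. Il34, Spp1 and Dcdc2a of that list were more than 2-fold higher than in adipocyte nuclei at both ages. Il34, a macrophage growth factor, stood at 110 and 94.3 CPM. Spp1, which encodes osteopontin, stood at 44.7 and 19.0 CPM, from 24 and 30 UMIs, and at 252 and 35.7 CPM in distal nuclei.

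Adipose RNA was also present among the members. The 9 adipocyte genes Cidec, Cidea, Lipe, Pparg, Fabp4, Pnpla2, Ucp1, Plin4 and Lep summed to 1035 CPM at 1 month and 668 CPM at 2 months, against 6800 and 8543 CPM in adipocyte nuclei. None of them was seen in 249 and 162 members. Conversely, the 6 proximal genes summed to 9811 and 11890 CPM in members and to 73.3 and 66.6 CPM in adipocyte nuclei. A UMI of at least 1 of them was seen in 12.3% and 13.7% of adipocyte nuclei, at the depths given above. Adipocyte nuclei had to hold fewer UMIs of these 6 genes than of Adipoq, Plin1 and Acsl1, so their rule held these values down. With that limit they give a background for the shares below.

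Among the genes that chose the nuclei, Slc34a1 was seen in 448 of 469 members at 1 month and 410 of 418 at 2 months. Its level was 3812 CPM and 4519 CPM, a log2 difference of 0.25. Lrp2, which encodes the endocytic receptor megalin, stood at 1633 and 2051 CPM, a log2 difference of 0.33. Cubn stood at 341 and 684 CPM, Slc5a12, an apical lactate carrier, at 658 and 2019 CPM, and Acsm2 at 1493 and 1985 CPM. For Cubn the log2 difference of 1.00 was under 2-fold in 10 of 15 alternative settings. It was 0.56 with every nucleus thinned to 500 UMIs, where that of Slc5a12 went from 1.62 to 1.05. Kap, the kidney androgen-regulated protein, went the other way, with 1874 CPM at 1 month and 631 CPM at 2 months. Its log2 difference was -1.57 (95% counting interval -1.70 to -1.44). All log2 values here compare CPM with 1 CPM added, intervals are exact conditional binomial intervals of the plain ratio, and with 1 library per age there is no test. In GRCm38, Kap spans chr6:133849851-133853762 and Slc34a1 chr13:55398187-55415592.

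Genes that set the members apart from all other kept nuclei in both libraries included carriers and enzymes outside the rule. Leaving out the 6 genes of the rule, the 10 genes with the largest excess were Slco1a6, Cyp2j5, Gm19950, Them7, Hnf4aos, Keg1, Gm42397, Slc22a28, Cyp4b1 and Pdzk1. Slco1a6, an organic anion transporter, stood at 1435 and 915 CPM, against 7.68 and 3.61 CPM in adipocyte nuclei. Keg1, a glycine acyltransferase-like gene, stood at 1158 and 1016 CPM. Pdzk1, the scaffold that holds apical carriers in the brush border, stood at 919 and 777 CPM. Hnf4aos, the antisense partner of Hnf4a, stood at 1292 and 1398 CPM. Whether the counting used strand is not given in the sources used here, so Hnf4a and Hnf4aos may share reads. Slco1a6, Cyp2j5, Slc22a28 and Cyp4b1 have close paralogues, and reads of such copies may be split between them.

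The comparison of the ages asks how the nuclei differed between 1 and 2 months. Of 8858 genes with at least 20 UMIs over both libraries, 479 were at least 2-fold higher at 2 months (5.41%) and 715 at least 2-fold lower (8.07%), with a median log2 difference of -0.03. With at least 50 UMIs the counts were 279 and 270. The split between directions moved with the scaling. Higher genes were 40.1% of those past 2-fold by the total, 64.4% with TMM scaling (839 higher and 463 lower) and 27.9% with Gm42418 and 2 similar transcripts left out of the total (362 and 937). These scalings moved the median of all genes by 0.22 and -0.10 on the log2 scale. The 10 lists of proximal tubule roles held 137 genes, of which 128 had enough UMIs. Of these 14 were past 2-fold higher, 10 past 2-fold lower, and their median was 0.17.

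**Figure D2:**
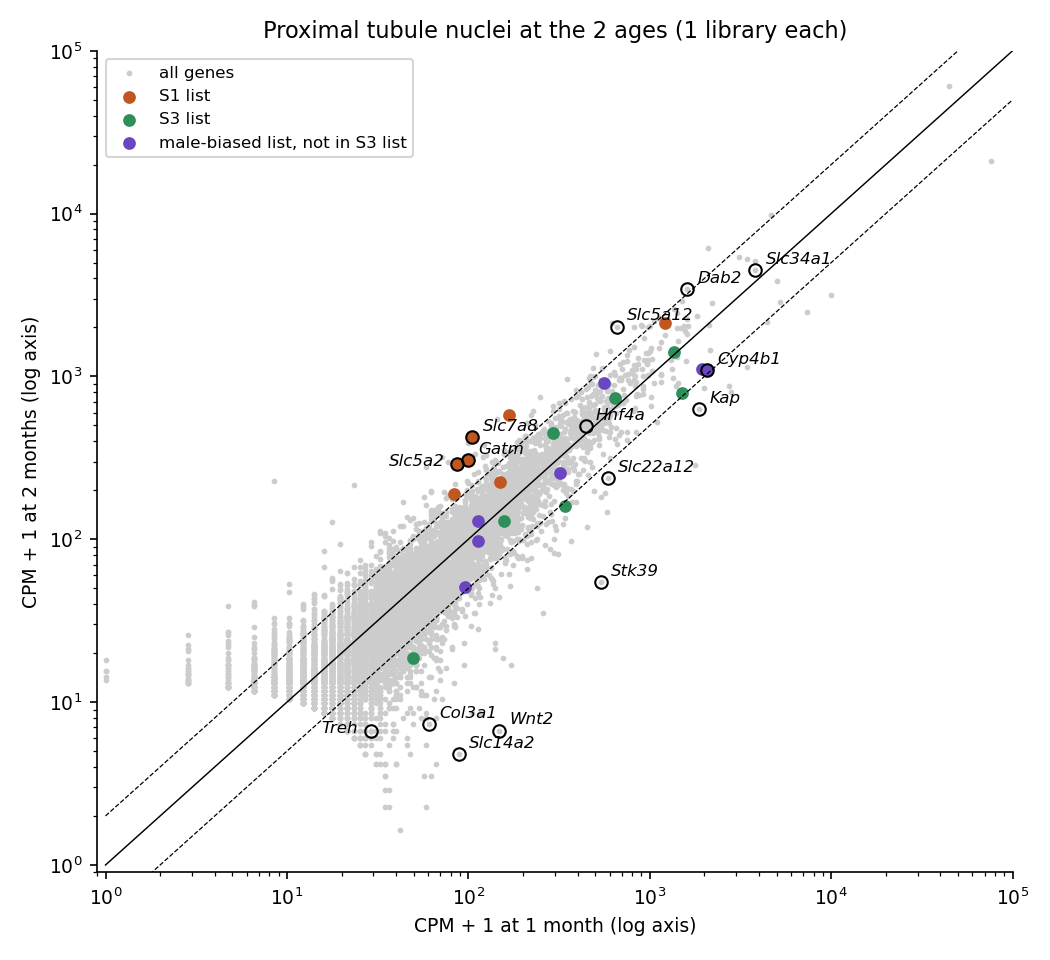
Level of each measured gene in proximal tubule nuclei at 1 month (x) and 2 months (y), as CPM plus 1 on log axes, 1 library per age. The solid line marks equal levels and the dashed lines 2-fold differences. Slc34a1 and Hnf4a lie near the solid line, Slc5a2 and Slc7a8 above it, and Kap, Stk39 and Wnt2 below it.

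Apical uptake carriers held members on both sides, with 4 of 17 past 2-fold higher and 2 past 2-fold lower. Beside the shares over all genes (5.41% higher and 8.07% lower), which hold for the counts of every list below, 2 of 17 lower is close to the background. Slc5a2, which encodes SGLT2 and takes up most filtered glucose, had 46 UMIs in 38 nuclei at 1 month and 455 UMIs in 164 nuclei at 2 months. Its level was 85.8 CPM and 288 CPM, a log2 difference of 1.74 (1.31 to 2.22). Slc5a1, the high-affinity glucose carrier SGLT1 of the late segment, had 48.5 and 17.7 CPM (log2 -1.40, -2.28 to -0.62). These values of Slc5a1 came from 26 and 28 UMIs, and distal nuclei held 26.9 and 17.8 CPM. Slc5a2 and Slc5a1 thus lay on opposite sides between the ages. The neutral amino acid carriers Slc6a19 and Slc6a18 did likewise. Slc7a13, another late-segment amino acid carrier, was higher at 2 months (log2 0.62), so late-segment carriers did not share 1 direction. Slc6a19, the early-segment carrier, stood at 82.0 and 188 CPM (log2 1.19), and its late-segment relative Slc6a18 at 341 and 159 CPM (log2 -1.09, or -0.87 with TMM scaling). Slc34a3, the phosphate carrier NaPi-IIc, had 2 UMIs at 1 month and 33 at 2 months. Slc13a1, the sulfate carrier, stood at 460 and 982 CPM (log2 1.09, or 0.99 without the Gm42418 group). Slc13a3, a basolateral dicarboxylate carrier that this list also held, stood at 815 and 950 CPM (log2 0.22).

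Of 10 basolateral genes, 2 were past 2-fold higher at 2 months and 0 past 2-fold lower, beside 5.41% and 8.07% of all genes, and both carry amino acids out of the cell. Slc7a7, which exports cationic amino acids, stood at 166 and 583 CPM (log2 1.81, 1.50 to 2.14), and Slc7a8, which exchanges neutral ones, at 104 and 424 CPM (log2 2.01, 1.63 to 2.44). Adipocyte nuclei held 62.1 and 38.2 CPM of Slc7a8, and at 1000 UMIs a nucleus it was seen in 6.22% of members and 5.18% of adipocyte nuclei at 1 month, so its share in members at that age lay near the adipocyte background. At 2 months it was seen in 87 of 348 members and in 3.67% of adipocyte nuclei. The sodium pump subunit Atp1b1 stood at 464 and 476 CPM. Among 14 organic ion carriers, Slc22a12 was the one past 2-fold in either direction. It encodes the urate carrier URAT1 and stood at 587 CPM in 185 nuclei and 237 CPM in 179 nuclei (log2 -1.31, -1.53 to -1.09). The organic anion carriers Slc22a6 (222 and 160 CPM) and Slc22a8 (231 and 233 CPM) and the efflux pump Abcc2 (960 and 1192 CPM) stayed within 2-fold.

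In the endocytic apparatus, 1 of 11 genes was past 2-fold. Dab2, the adaptor that binds the tail of megalin, stood at 1596 and 3426 CPM (log2 1.10), and was just under 2-fold, at 1.00, without the Gm42418 group. Of 13 brush border genes, 1 was past 2-fold higher and 3 past 2-fold lower, beside 5.41% and 8.07% of all genes. Counts of 1 gene in lists of this size are near that background. Ggt1, which breaks down glutathione, stood at 393 and 168 CPM (log2 -1.23). Slc9a3r1, the NHERF1 scaffold, stood at 83.9 and 37.3 CPM (log2 -1.15, or -0.93 with TMM scaling). Treh, the trehalase gene, had 15 and 9 UMIs, too few to place: its log2 difference was -2.11 over all UMIs and 0.15 with every nucleus thinned to 500 UMIs.

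The sugar and ammonia, fatty acid oxidation and amino acid lists had median log2 differences of -0.10, -0.16 and -0.17, beside -0.03 for all genes. Of 11 sugar and ammonia genes, 2 were past 2-fold higher and 0 lower. G6pc, which releases glucose at the end of gluconeogenesis, stood at 168 and 349 CPM (log2 1.05), and Sord, which makes fructose from sorbitol, at 291 and 614 CPM (log2 1.07). Without the Gm42418 group these differences were 0.95 and 0.97. G6pc was under 2-fold in 8 of 15 alternatives and Sord in 4. Alternatives that only changed the minimum of UMIs are among the 15 and could not move a ratio. The gluconeogenic Fbp1 (326 and 364 CPM) and the ammonia-forming Glud1 (205 and 195 CPM) stayed within 2-fold. Fatty acid oxidation held 1 of 15 on each side, Ppargc1a (157 and 335 CPM) and Acadm (220 and 106 CPM), and adipocyte nuclei also expressed both, at 220 and 589 CPM and at 469 and 400 CPM. Neither call held in every setting: for Ppargc1a the log2 difference was 1.09, but 0.99 without the Gm42418 group and 0.36 with every nucleus thinned to 500 UMIs. For Acadm it was -1.04, but -0.82 with TMM scaling, and it was under 2-fold in 6 of 15 alternatives. Amino acid metabolism held 1 of 16 higher and 3 lower. Gatm, the first enzyme of creatine synthesis, stood at 98.8 and 306 CPM (log2 1.62, 1.22 to 2.07). Cndp2, a dipeptidase, stood at 209 and 74.0 CPM, Hpd of tyrosine breakdown at 54.1 and 14.6 CPM, and the aminoacylase Acy1 at 61.5 and 13.3 CPM.

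The factors that mark the tubule stayed within 2-fold but for Pax2. Hnf4a stood at 442 and 496 CPM, Hnf4g at 557 and 628 CPM, and the bile acid receptor Nr1h4 at 546 and 755 CPM. Pax2, an early nephron factor and the 1 of 11 past 2-fold, stood at 83.9 and 218 CPM (log2 1.36). Of 10 hormone and vitamin D genes, 1 was past 2-fold. Cyp24a1, which inactivates vitamin D, had 15 UMIs in 11 nuclei and 108 UMIs in 46 nuclei (log2 1.26, 0.50 to 2.18). It was under 2-fold as a mean of nuclei (0.99) and with every nucleus thinned to 500 UMIs (0.73). Dividing-cell genes had at most 5 UMIs each in either library.

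The genes with the largest differences were mostly outside these lists. Gm33906 stood at 22.4 and 214 CPM, Cntnap5a, a neurexin-family adhesion gene, at 16.8 and 127 CPM, and Unc5c, a netrin receptor, at 98.8 and 388 CPM. On the lower side, Wnt2, a secreted signal, on chr6:17988940-18030585, had 79 UMIs in 66 nuclei and 9 UMIs in 8 nuclei. Its level was 147 and 5.69 CPM (log2 -4.47, -5.87 to -3.70), with 2.63 and 0.452 CPM in adipocyte nuclei and 2.83 and 8.91 CPM in distal nuclei. Gabra2, a GABA-A receptor subunit, stood at 116 and 7.59 CPM, and Tshz3, a zinc-finger factor, at 172 and 15.8 CPM. Stk39, the SPAK kinase, stood at 537 and 53.8 CPM (log2 -3.30, -3.69 to -2.97), while distal nuclei held 932 and 995 CPM.

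Some of the lowest ratios touched few nuclei or genes of other cells. Adgrf5 and Il1rapl1 came from 11 and 10 nuclei at 1 month. Adamtsl1 came from 12 nuclei at 1 month, with 87 UMIs in 1 of them, and its log2 difference of -2.87 became 0.45 with at least 5 UMIs of the 6 genes. The fibroblast genes Col3a1 (59.6 and 6.33 CPM) and Dcn (57.8 and 6.96 CPM) were lower too, and the 5 fibroblast genes summed to 155 and 17.7 CPM. For Col3a1 the log2 difference of -3.05 became -0.25 with at least 5 UMIs of the 6 genes. The distal gene Slc14a2, which the rule holds down, had 47 and 6 UMIs, and stood at 6478 and 172 CPM in distal nuclei. The adipocyte genes Cidea (112 and 27.2 CPM) and Lipe (235 and 97.4 CPM) were past 2-fold lower in members. How far RNA of other cells made these differences was not tested.

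Early- and late-segment genes divided the nuclei. The S1 list held Slc5a2, Slc2a2, Slc7a7, Slc7a8, Slc6a19, Gatm and Slc4a4, and 5 of 7 were past 2-fold higher at 2 months, with a median log2 difference of 1.62. Over all genes 5.41% were past 2-fold higher and 8.07% lower, with a median of -0.03. The S3 list held Slc7a13, Slc22a7, Slc22a19, Slc22a30, Cyp7b1, Slc6a18, Slc5a8, Slc5a1, Atp11a and Slc27a2. Of its 7 genes with enough UMIs, 0 were past 2-fold higher and 2 past 2-fold lower, with a median of -0.28. The 5 higher genes (Slc5a2, Slc6a19, Slc7a7, Slc7a8 and Gatm) and the 2 lower (Slc5a1 and Slc6a18) were also counted in the role lists above. These counts are therefore not separate results. Slc5a2 and Slc7a13, the late-segment amino acid carrier AGT1, were seldom seen in the same nucleus. At 1 month 38 of 469 nuclei had Slc5a2, 77 had Slc7a13 and 0 had both. At 2 months the counts were 164, 110 and 2 of 418. Fewer nuclei held either gene at 1 month, so the 0 at that age says less than the 2 at 2 months. The overlap to be expected for unrelated genes was not computed.

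A nucleus was called S1-leaning when its UMIs of the S1 list exceeded those of the S3 list, which marks a range and not a type. With every nucleus thinned to 1000 UMIs, 41 of 193 nuclei were S1-leaning at 1 month (21.2%, 15.7% to 27.7%) and 177 of 348 at 2 months (50.9%, 45.5% to 56.2%). S3-leaning nuclei were 137 (71.0%) and 154 (44.3%). Thinning left out 276 and 70 shallower nuclei, and 44 and 68 nuclei lay within 1 UMI of the cut. Without thinning, S1-leaning nuclei were 29.4% and 49.5%, and without Slc4a4 and Slc27a2, which adipocyte nuclei also express, they were 14.0% and 44.5% of thinned nuclei. Slc7a8 and Atp11a were also found in adipocyte nuclei, and without all 4 genes the shares were 16.6% and 44.8%. In all these settings the share was higher at 2 months. Every setting drew on the S1 and S3 lists, whose levels differed between the ages as given above. The share therefore restates those levels in single nuclei and is not separate support. At 1000 UMIs single genes varied: Slc7a13 was seen in 17.6% and 17.8% of members, Slc6a18 in 25.9% and 12.1%, and Slc5a2 in 7.77% and 26.7%. The intervals cover counting error, and with 1 library per age a difference of ages cannot be told apart from a difference of dissections or libraries.

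**Figure D3:**
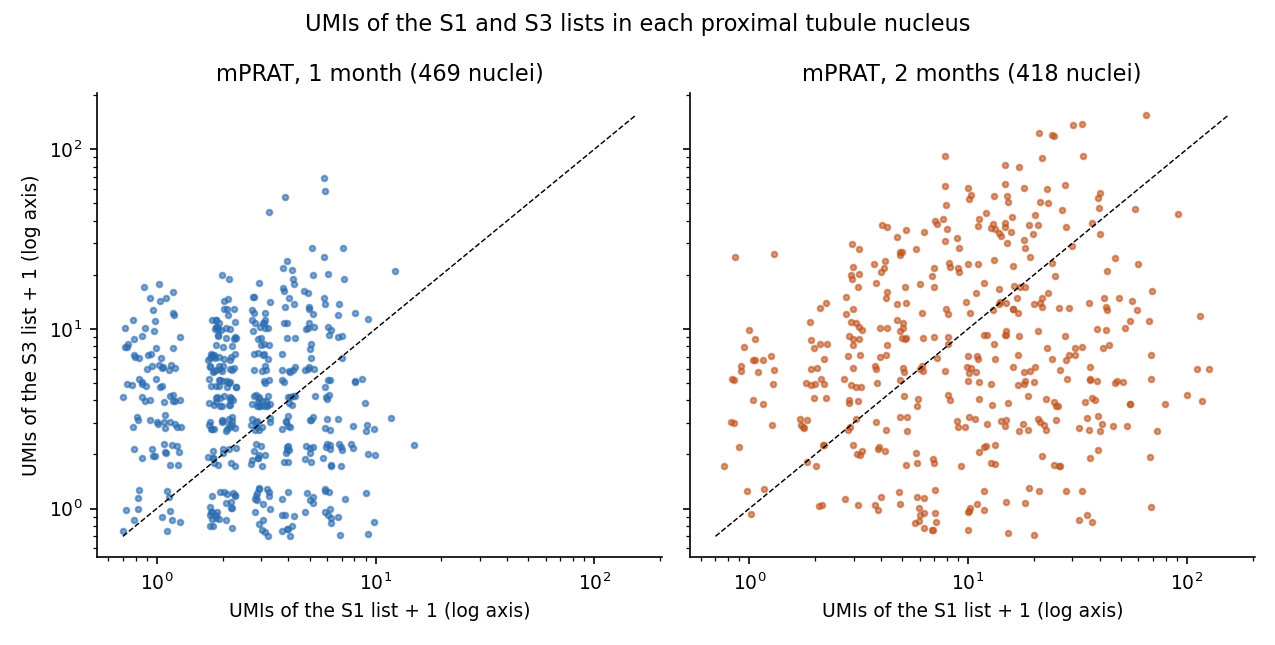
UMIs of the S1 list (x) and the S3 list (y) in each proximal tubule nucleus, plus 1, with jitter, on log axes, for 469 nuclei at 1 month (left) and 418 at 2 months (right); the dashed line marks equal sums. Nuclei below the line are S1-leaning, 138 at 1 month and 207 at 2 months before thinning.

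Shares of nuclei with a UMI were compared at 1000 UMIs a nucleus. Slc5a12 was seen in 18.1% and 51.7% of members, against 0.628% and 1.11% of adipocyte nuclei. These shares rest on the 193 and 348 members with at least 1000 UMIs. With all members thinned to 500 UMIs Slc5a12 was seen in 23.9% and 41.4%, and without thinning in 27.7% and 55.7%. Kap was seen in 61.1% and 38.8%, against 1.67% and 0.664%. The rules for members and for adipocyte nuclei both used Slc5a12 and Kap, so these contrasts are a description. Wnt2 was seen in 10.4% and 1.44%. Slc34a1 was seen in 92.2% and 94.3%, Hnf4a in 35.8% and 37.9%, and Slc7a13 in 17.6% and 17.8%. Without thinning, Kap was seen in 292 of 469 and 208 of 418 members. Stk39 was seen in 29.0% and 6.90% of members and in 10.0% and 5.88% of adipocyte nuclei.

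Outside both lists, the 10 genes with the largest excess in each leaning were picked for that excess, and their values are a description. Slc5a12 and Kap were among them and also helped to choose the members. Slc5a12 stood at 1951 CPM in S1-leaning and 129 CPM in S3-leaning nuclei at 1 month, and at 3624 and 314 CPM at 2 months. Prodh2 and Gldc, enzymes of hydroxyproline and glycine breakdown, were also among the 10 genes with the largest excess in S1-leaning nuclei. Gldc stood at 285 and 56.2 CPM at 1 month and at 567 CPM in S1-leaning nuclei at 2 months. Besides Kap, Slco1a1, Aadat, Dpys and Ugt2b37 were among the 10 with the largest excess in S3-leaning nuclei. Slco1a1, a male-biased organic anion transporter, had 1 UMI in S1-leaning and 59 in S3-leaning nuclei at 1 month, and 0 and 201 at 2 months.

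Some age differences were present in each leaning and others in 1 of them, with all UMIs used. Without thinning, 138 of 469 nuclei at 1 month and 48 of 418 at 2 months lay within 1 UMI of the cut. The leanings were therefore less sharply divided at 1 month. S1-leaning nuclei had medians of 3 and 17 UMIs of the S1 list, and a median of 0 Kap UMIs at both ages. Kap was lower at 2 months in both, with 472 and 156 CPM in S1-leaning nuclei (log2 -1.59, -2.03 to -1.15) and 2537 and 1111 CPM in S3-leaning nuclei (log2 -1.19, -1.33 to -1.05). Wnt2 went from 208 to 7.44 CPM in S1-leaning and from 101 to 4.04 CPM in S3-leaning nuclei. Stk39 went from 680 to 53.3 CPM and from 453 to 55.2 CPM. Dab2 was higher in both, by log2 1.03 and 1.06. Fut9 and Nox4, a fucosyltransferase and an NADPH oxidase named after their values were seen, were higher in both as well. Fut9 differed by log2 1.71 and 1.33, and Nox4 by 1.59 and 1.16. Other genes differed mainly in 1 leaning. In S1-leaning and S3-leaning nuclei Gm33906 differed by log2 0.02 (-1.77 to 2.43) and 4.18 (3.24 to 5.46). The S1-leaning value rests on 3 and 17 UMIs, too few to show that Gm33906 did not differ there. Unc5c differed by 2.31 and 0.57. Slc34a1, within 2-fold in both, differed by 0.69 and -0.03. Slc5a2 (1.16 and -0.15) and Slc7a7 (1.53 and -0.23) also set the leaning. So did Slc5a1 and Slc6a18, which differed by -0.87 and -0.64 in S3-leaning nuclei, both within 2-fold. Over all genes, 825 of 6420 were at least 2-fold higher (12.9%) and 585 lower (9.11%) in S1-leaning nuclei, and 370 of 6785 were higher (5.45%) and 487 lower (7.18%) in S3-leaning nuclei. Median UMIs were 806 and 3178 in S1-leaning nuclei and 985 and 2440 in S3-leaning nuclei. Gm42418 took 7.96% and 1.82% of the UMIs of the first and 7.44% and 2.31% of the second. The difference between leanings was not tested.

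**Figure D4:**
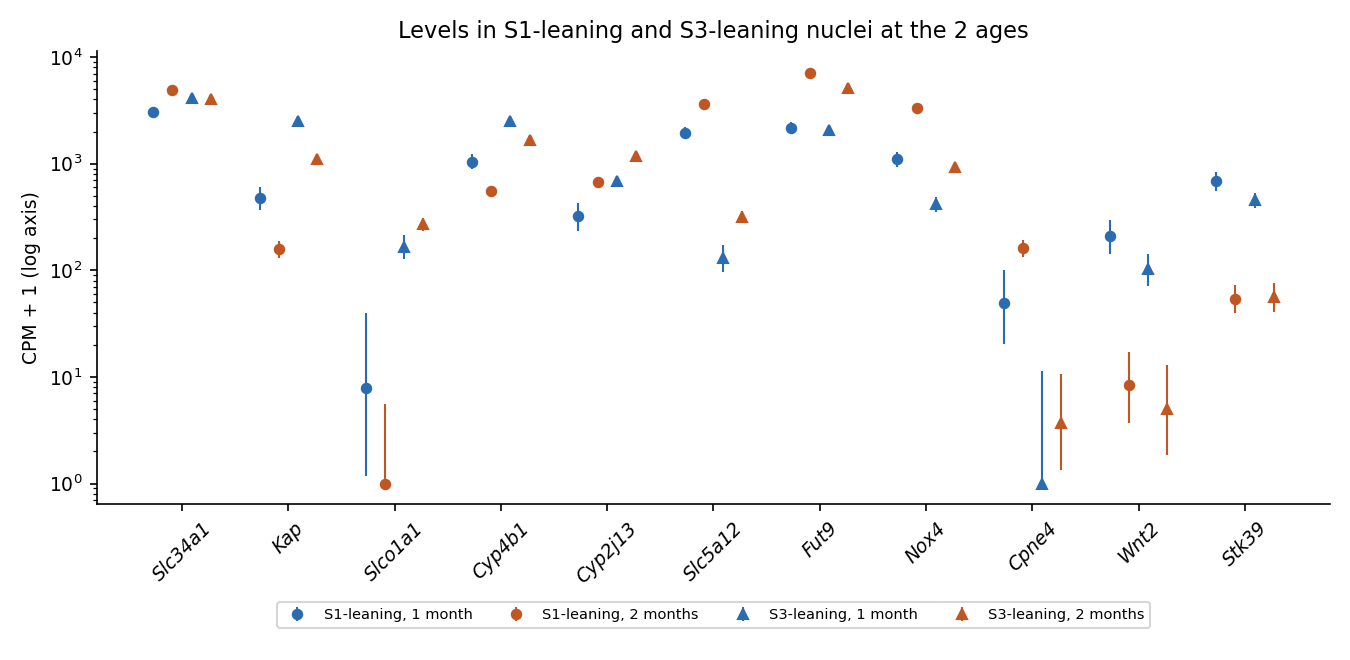
Levels of 11 genes as CPM plus 1 on a log axis in S1-leaning (circles) and S3-leaning (triangles) nuclei at 1 month (blue) and 2 months (orange), with exact 95% Poisson intervals. Kap, Wnt2 and Stk39 were lower at 2 months in both leanings.

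Genes known as higher in the male proximal tubule did not move as 1 group. Mice pass through puberty between these ages, and both libraries came from males. Of 12 genes 9 had enough UMIs, none was past 2-fold, and the median log2 difference was -0.21 beside -0.03 for all genes. With TMM scaling the median was 0.02 beside 0.19 for all genes. Cyp4b1, a fatty acid hydroxylase, stood at 2069 and 1087 CPM (log2 -0.93, -1.04 to -0.82, and past 2-fold at -1.03 without the Gm42418 group), and Cyp2j5, an arachidonic acid epoxygenase, at 1944 and 1103 CPM (log2 -0.82). Its neighbour in the family, Cyp2j13, stood at 559 and 908 CPM (log2 0.70, 0.52 to 0.88), and Slc7a13 at 293 and 449 CPM (log2 0.62). Slco1a1 was at 112 and 129 CPM. Within S3-leaning nuclei the median of 9 genes was 0.33 beside 0.03 for all genes. Within S1-leaning nuclei the median of 6 genes was -0.53 beside 0.10. The list shares Slc7a13, Slc22a30 and Cyp7b1 with the S3 list, so the levels of these 3 genes also set the leaning. The median of 0.33 in S3-leaning nuclei is the value of Slc22a30 itself. It therefore does not stand apart from the choice of those nuclei. In S3-leaning nuclei Slco1a1, which set nothing, stood at 166 and 271 CPM (log2 0.70, 0.28 to 1.15), and Kap, which is androgen-regulated but was kept out of this list, was lower as given above.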

How the data were processed

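The deposited files hold raw UMI counts per gene and nucleus, which the authors made with Cell Ranger 7.0.0 on mm10, per the submitters' processing notes. Values were taken as deposited for 32285 genes, and every file belonged to a single labelled sample. Nuclei were kept from 300 genes upward where mitochondrial UMIs did not pass 10%. UMIs were summed over the nuclei of a kind and scaled to 1e+06 (CPM). Genes with at least 20 UMIs over both libraries were compared as log2 ratios with 1 CPM added, and called past 2-fold. No test was run and no p-value given, because each group had 1 library. Intervals (95%, exact Poisson, Clopper-Pearson or conditional binomial) cover counting error only. Zero counts allow 3 counts. Doublets were kept, as the rule sets no doublet step. An alternative removed the nuclei with the highest Scrublet scores, at 0.8% per 1000 nuclei (scanpy 1.11.5). The ratio and its interval were tested on simulated counts. These were independent Poisson draws for each gene, which the interval itself assumes. They cannot show how the interval fares where the UMIs of a gene gather in few nuclei. Other software was Python 3.11.15, numpy 2.4.6, scipy 1.17.1 and pandas 2.3.3. Promoter windows came from the RefSeq table of GRCm38.p6, in which 5 of the 6 genes of the rule were matched (all but Slc5a12), and gene positions from GENCODE M21 (GRCm38).

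The members, gene lists and comparisons were chosen with earlier results of these data known. Named genes were the 6 genes of the rule, listed genes past 2-fold or among the 2 highest of their list, the 10 with the largest ratios in each direction (10 CPM added), and the 10 outside the rule with the largest excess over other nuclei. Others named say so or come from the lists. Some genes that meet this rule are not reported here.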

Additional observations from a re-analysis of the deposited data

Results flagged for a closer look

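Nuclei that met the rule were also found outside the comparison, with 12 and 7 in 2 libraries described here and 1 each in iBAT at 1 month and cold-exposed iWAT. In mPRAT at 6 months there were 12. They held 124 UMIs of Slc34a1 in 8 nuclei (3062 CPM), 60 of Lrp2, 35 of Slc5a12, 45 of Acsm2 and 25 of Kap. All 14 proximal tubule markers outside the rule had at least 1 UMI among them, with Slc5a2 in 4 nuclei and Hnf4a in 3. In lPRAT at 6 months there were 7, and they differed in makeup. All 7 had Lrp2 (47 UMIs) and Cubn (7 UMIs), while Slc34a1, Slc5a12, Acsm2 and Kap were at 0 in 71623 UMIs. Of the 14 markers only Slc4a4 (55 UMIs) and Pck1 (2 UMIs) were seen in them, and both are also expressed by adipocyte nuclei. These 7 nuclei therefore met the rule through the receptor pair megalin and cubilin alone.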

How the results depend on the processing

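No paired analysis was possible because each group had 1 library, and no replicate could be left out. The share at 1 month was 7.20% with at least 500 genes, 7.57% with at least 5 UMIs of the 6 genes and 7.18% without Kap and Acsm2 in the rule. At 2 months it was 5.54% with no mitochondrial limit. Counts of genes past 2-fold, higher and lower, were 839 and 463 with TMM scaling, 897 and 2083 with at least 5 UMIs, 279 and 270 with at least 50 UMIs, 203 and 353 with 10 CPM added, and 267 and 241 with every nucleus thinned to 500 UMIs. Subtracting free RNA gave 733 higher genes. The S1-leaning share at 1 month was 29.4% without thinning and 14.0% without Slc4a4 and Slc27a2, and the latter gave 44.5% at 2 months. Without Slc7a8 and Atp11a as well it was 44.8% at 2 months. Adamtsl1 changed sign, to 0.45 with at least 5 UMIs of the 6 genes and 0.028 when thinned, and Treh to 0.15 when thinned. The cause of these changes was not tested. The median of the male-biased genes ran from -0.31 to 0.02 over all settings. The median of all genes moved with it, at -0.13 and 0.19 in the settings that gave these ends. Of 57 named genes past 2-fold, 36 stayed past it in the same direction in all 15 alternatives for the age comparison, Kap, Slc5a2, Slc7a8, Slc22a12, Wnt2 and Stk39 among them. Not all of these alternatives could remove a gene. The minimums of 5 and 50 UMIs left every ratio as it was, so all 57 were kept by construction. Leaving mitochondrial genes and Kap out of the total barely moved the ratios and also kept all 57. Thinning to 500 UMIs for the age comparison and the removal of nuclei rich in adipocyte RNA were chosen after seeing the data. So were the total without the Gm42418 group and the shorter segment lists. For the S1-leaning share, thinning to 500 UMIs was planned. At 912 UMIs a nucleus, absence of a gene from a nucleus at 1 month says little.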

Other observations

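The distal nephron nuclei of the same libraries differed in makeup between the ages. Slc14a2, the urea transporter of the thin limb and inner medulla, stood at 6478 CPM in 403 distal nuclei at 1 month and at 172 CPM in 120 distal nuclei at 2 months. Slc12a3, the thiazide-sensitive carrier of the distal convoluted tubule, stood at 3756 and 12079 CPM. Both genes helped choose these nuclei, so the values are a description. Urothelial genes were low in proximal tubule nuclei, with 6 genes summing to 31.7 and 58.8 CPM, against 45.2 and 117 CPM in adipocyte nuclei.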
